A study of Saccharomyces cerevisiae with 17 samples.

Results

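VIN13 is a commercial wine strain of the yeast Saccharomyces cerevisiae, and its gene expression on day 5 of a grape must fermentation was compared here with that on day 2. Day 5 stands for early stationary phase, when the cells have stopped multiplying, and day 2 for exponential growth. The comparison rests on 6 of the 17 arrays of the series, 3 of VIN13 at day 5 and 3 of VIN13 at day 2, and covers all 5449 S. cerevisiae genes to which the array annotation assigns a probe set of their own. Both groups fermented must of the grape variety Colombar with little oxygen, and the labels give neither group an engineered allele or an added agent. The other arrays hold VIN13 at day 14, late in stationary phase (3), and the second strain, BM45, at day 14 (3), day 5 (3) and day 2 (2). The labels do not say that replicates came from separate ferments, so each p-value measures only the spread between samples. That spread was estimated within the groups of all 17 arrays, and not from the 6 alone.

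Each value is the intensity of a probe set on an Affymetrix array, measured from a sample of total RNA. Intensities of different genes come from different probes, so only changes, and not levels, are compared between genes. A change is the day 5 mean minus the day 2 mean of log2(intensity + 16), ± its standard error from a linear model (limma, n = 3 arrays a group), so that a change of 1 is a doubling. A gene is said to have risen or fallen only where its p-value, adjusted over the 5449 genes, was under 0.05. An intensity of 100.7, the level under which 95% of the probe sets for another yeast, Schizosaccharomyces pombe, lay on average, served as the background bound. Since each sample pools the RNA of many cells, a smaller share of cells that express a gene cannot be told apart from less of its RNA in every cell. The median gene had intensities between 907 and 1015 on the 6 arrays. The 3' signal of the ACT1 control over its 5' signal, which grows as RNA is broken, was 1.70, 1.65 and 2.86 at day 5, against 5.55, 1.70 and 3.003 at day 2, so that day 2 replicate 1 stood highest. For the WBP1 control this ratio was 3.43, 3.12 and 4.85 at day 5, against 11.4, 3.88 and 7.67 at day 2. For the TDH1 control it lay between 1.03 and 1.14 on the 6 arrays.

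A wine yeast stops dividing while much of the sugar of the must is still present, and it finishes the fermentation as a non-growing culture. Background knowledge of this switch is that cells in stationary phase build fewer ribosomes, store glycogen and trehalose, and express genes of the stress response and of respiration that glucose and growth signals had held down. Ergosterol, the main sterol of the yeast membrane, can be made only with molecular oxygen, which is scarce in a ferment, so sterol stocks are shared out among daughter cells while division lasts.

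Across the array 2052 genes passed the test. Of the 5449 genes, 842 (15.5%) rose and 1210 (22.2%) fell between day 2 and day 5, and these shares are the background for every list below. The split was 1125 risen against 1033 fallen once each array was centred on its median gene. At least 2-fold rises numbered 153 and falls of that size 146, and 21 rises and 16 falls reached 4-fold. The median change over all genes was -0.03. The day 5 and day 2 arrays did not overlap for 2543 genes (46.7%). The largest rises and falls named below were taken only from such genes, so their lack of overlap is no separate support for them. The 77 gene lists used below hold 1632 genes. Where leaving out 1 of the 6 arrays moved the count of a list of more than 3 called genes by over 1.5 times, that array is named with the count without it.

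**Figure D1:**
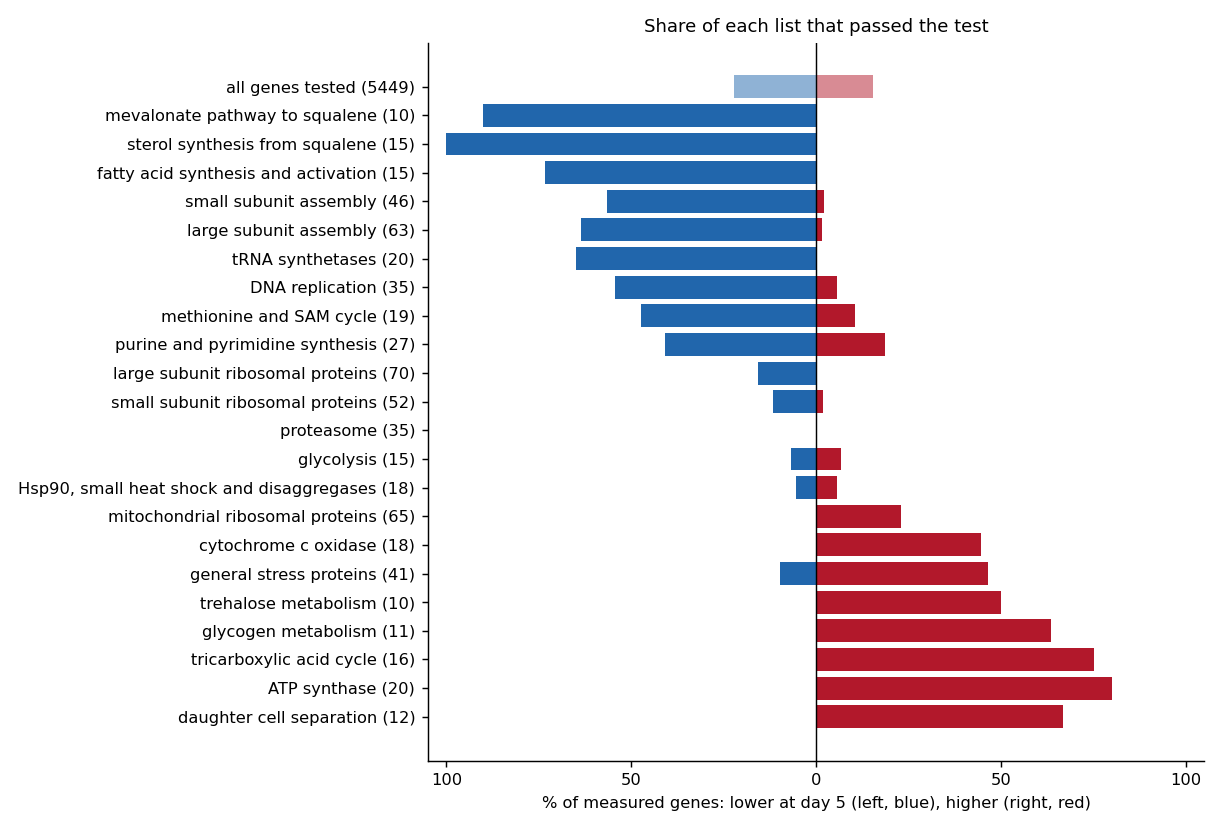
Share of the measured genes of 22 lists, and of all genes tested, that passed the test as lower (blue bars, drawn to the left) or higher (red bars, drawn to the right) in VIN13 at day 5 against day 2, in % of the measured genes, with the number of measured genes in brackets. Sterol synthesis stands at one end with 15 of 15 genes fallen, ATP synthase near the other with 16 of 20 risen, and no proteasome gene passed in either direction.

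Genes that make sterols fell together, and their lists had the lowest medians of the 77. Of the 10 genes of the mevalonate pathway, which joins acetyl-CoA units into squalene, 9 fell, with a median change of -1.45. All 15 genes that carry squalene to ergosterol fell, with a median of -0.90. Along the first stretch, ERG13, the HMG-CoA synthase gene, had intensities of 3308, 4085 and 3584 at day 5, against 13097, 13174 and 13426 at day 2 (-1.86 ± 0.16, adjusted p = 6.28e-07). HMG1 encodes the main HMG-CoA reductase, the controlled step of the pathway, and had 2951, 3418 and 4352 at day 5, against 12454, 14277 and 15476 at day 2 (-1.99 ± 0.13, adjusted p = 3.48e-08). No day 5 array of either gene came near a day 2 array. Its sister gene HMG2, for the second reductase, had 3592, 3727 and 3790.1 at day 5, against 2538, 4333 and 4408 at day 2 and was not called (0.02 ± 0.16, adjusted p = 0.924), and the groups overlapped. Without day 2 replicate 1, its lowest day 2 array, HMG2 was called lower as well, with a change of -0.24. The next enzymes fell in turn, with changes of -1.98 for mevalonate kinase, ERG12, -2.32 for phosphomevalonate kinase, ERG8, and -2.19 for the decarboxylase gene MVD1. ERG20, for farnesyl diphosphate synthase, and ERG9, for squalene synthase, fell, with changes of -0.78 and -0.99.

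Beyond squalene the falls were unequal. ERG7 encodes lanosterol synthase, which closes the sterol rings, and had 1145, 1292 and 1444 at day 5, against 6047, 5718 and 6117 at day 2 (-2.20 ± 0.12, adjusted p = 9.49e-09). ERG6, for the methyltransferase that sets ergosterol apart from cholesterol, had 2548, 2694 and 2798 at day 5, against 13997, 13004 and 12092 at day 2 (-2.27 ± 0.14, adjusted p = 2.43e-08). ERG27 and ERG24, for the keto reductase and the C-14 reductase, fell, with changes of -1.69 and -1.20. ERG11 changed far less: this gene for the lanosterol demethylase, which azole drugs inhibit, had 11646, 12612 and 12522 at day 5, against 15160, 15424 and 16206 at day 2 (-0.35 ± 0.08, adjusted p = 0.00524). ERG25, for the methyl oxidase, fell by 0.56, ERG3, for the C-5 desaturase, by 0.64 and ERG5, for the C-22 desaturase, by 0.58. The largest fall of the whole comparison lay just past the pathway, in storage. ARE2, the acyltransferase gene that esterifies ergosterol for lipid droplets, had 202, 269 and 201 at day 5, against 2799, 2597 and 2459 at day 2 (-3.47 ± 0.11, adjusted p = 2.98e-11), 11-fold lower. ARE1, the other acyltransferase gene, fell by 0.67. YEH1, for a hydrolase that frees sterols from these esters, fell by 2.27.

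Of the 15 genes of sterol esters, uptake and regulation, ARE2, ARE1 and YEH1 among them, 7 fell and 1 rose, with a median of -0.46. Leaving out 4 arrays that had moved alike away from their groups in an earlier look at these data, among them day 5 replicate 3 and day 2 replicate 1, gave 12 falls. ECM22, for a transcription factor that binds sterol response elements, fell (-1.09 ± 0.11, adjusted p = 3.32e-06), whereas UPC2, its paralog, had 3058, 3382 and 1690.5 at day 5, against 1008, 3027 and 1758 at day 2, with overlapping groups and no call (0.56 ± 0.32, adjusted p = 0.179). The sterol importer gene AUS1 and DAN1, a wall protein gene of anaerobic cells, were not called either, with changes of -0.44 and -0.02.

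**Figure D2:**
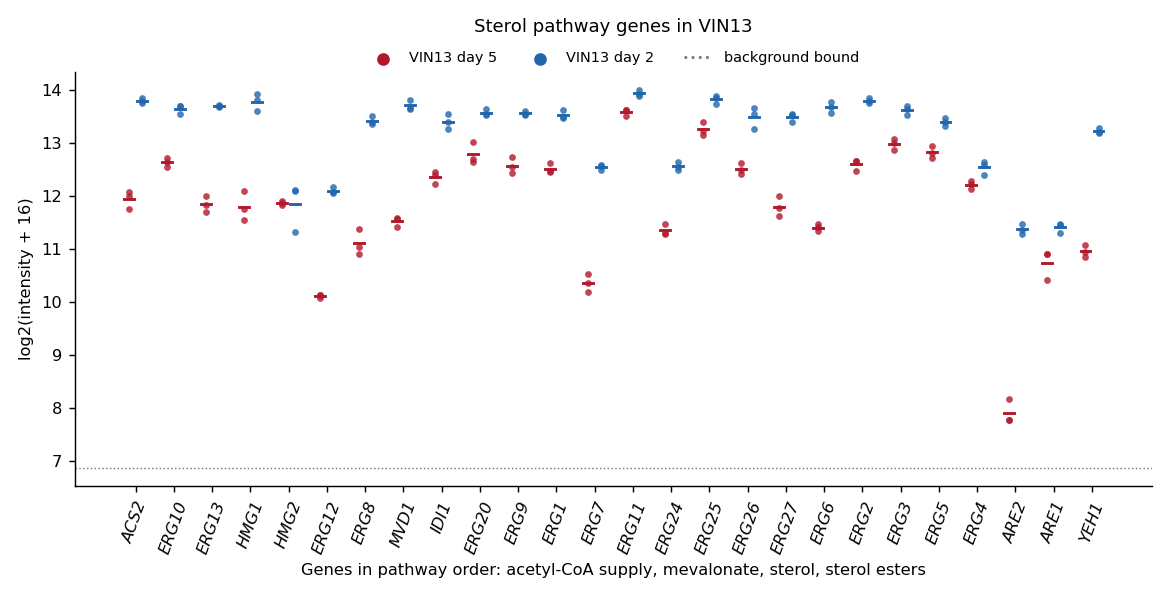
Intensity, as log2(intensity + 16), of 26 genes in pathway order, from the supply of acetyl-CoA over mevalonate and sterol synthesis to the sterol esters, with VIN13 day 5 in red to the left of VIN13 day 2 in blue. Points are single arrays, bars are group means, and the dotted line is the background bound. Every gene except HMG2 lies lower at day 5, from a small step for ERG11 to the largest for ARE2, whose day 5 arrays still lie above the bound.

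Fatty acid genes fell with the sterol genes. Of the 15 genes of fatty acid synthesis and activation 11 fell and none rose, with a median of -0.48. ELO3, for the elongase of very long chains, had 697, 828 and 465 at day 5, against 1416, 1415 and 990.2 at day 2 (-0.94 ± 0.18, adjusted p = 9.96e-04). ELO1, for an elongase of medium chains, had 5784, 6279 and 6692 at day 5, against 11594, 10638 and 11474 at day 2 (-0.85 ± 0.09, adjusted p = 4.64e-06). In both genes all day 5 arrays lay below all day 2 arrays. FAA1, for the main activator of imported fatty acids, and PHS1, for a dehydratase of the elongation cycle, fell, with changes of -0.90 and -0.85. OLE1, the desaturase gene on which unsaturated fatty acids depend, was not called (-0.08 ± 0.07, adjusted p = 0.45), with 13266, 13338 and 13998 at day 5, against 14373, 13627 and 14786 at day 2.

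Among the 19 genes of phospholipid and inositol synthesis 4 fell and 1 rose, and the median was 0.05. EKI1 and EPT1, for the first and last enzymes that turn ethanolamine into phosphatidylethanolamine, fell, with changes of -0.86 and -0.73. OPI1, for the repressor of inositol-controlled genes, was the gene of this list that rose (0.68 ± 0.12, adjusted p = 5.42e-04), and INO1, the inositol synthase gene it represses, fell by 0.43. Outside this list, HNM1, the choline permease gene, had 1683, 1883 and 1871 at day 5, against 4619.8, 5609 and 5559.7 at day 2 (-1.53 ± 0.16, adjusted p = 5.98e-06). PDR16, for a phosphatidylinositol transfer protein, is likewise no member, and had 3375, 4159 and 4029 at day 5, against 10918, 10089 and 11124 at day 2 (-1.48 ± 0.13, adjusted p = 7.37e-07).

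Acetyl-CoA feeds both pathways, and ACS2 and ALD6, 2 genes of its supply in the cytosol, fell. In the lists that hold them, of 9 genes of the carnitine shuttle and of acetate use 3 rose and 2 fell, and of 15 alcohol and aldehyde dehydrogenase genes 6 rose and 1 fell. ACS2, the acetyl-CoA synthetase gene used on glucose, had 3403, 4059 and 4276 at day 5, against 14107, 13705 and 14673 at day 2 (-1.86 ± 0.15, adjusted p = 4.22e-07). ALD6 makes the acetate for this enzyme from acetaldehyde in the cytosol, and its gene had 4039.5, 4360.3 and 4576 at day 5, against 9381, 10407 and 10076 at day 2 (-1.20 ± 0.11, adjusted p = 1.32e-06). Both genes stood clearly lower on each day 5 array. ALD4 and ALD3 went the opposite way. ALD4, for the main mitochondrial enzyme, had 2762, 3089 and 2636 at day 5, against 989, 1853 and 2040.4 at day 2 (0.86 ± 0.21, adjusted p = 0.00497), with a change of 0.53 without day 2 replicate 1. ALD3, for a stress-induced cytosolic enzyme, had 3123, 3553 and 4824 at day 5, against 1695, 1569 and 1528 at day 2 (1.23 ± 0.18, adjusted p = 1.42e-04). CRC1 encodes the carrier that brings acetyl-carnitine into mitochondria, and had 1548, 1602 and 1186 at day 5, against 260.4, 412 and 665 at day 2 (1.75 ± 0.29, adjusted p = 3.82e-04).

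The pentose phosphate pathway was split between sister genes. This pathway makes NADPH and ribose from glucose 6-phosphate, and several of its steps have a major and a minor gene. Of its 12 genes 4 rose and 4 fell (2 fell without day 5 replicate 1 and 2 without day 5 replicate 2). The 4 that rose were the minor genes GND2, TKL2, SOL4 and NQM1. GND2, for the lesser 6-phosphogluconate dehydrogenase, had 4490.4, 4813 and 6202 at day 5, against 965, 1129 and 1515 at day 2 (2.10 ± 0.16, adjusted p = 2.33e-07). TKL2, for the lesser transketolase, had 1614, 2034 and 2046 at day 5, against 436, 611 and 534 at day 2 (1.82 ± 0.15, adjusted p = 6.28e-07). SOL4, for a 6-phosphogluconolactonase, had 6419.7, 5849 and 5540 at day 5, against 2117, 2414 and 3012 at day 2 (1.25 ± 0.11, adjusted p = 1.44e-06), and NQM1, for a transaldolase paralog, rose by 1.15. In each of them the day 5 arrays lay above all day 2 arrays. The major counterparts GND1, SOL3 and TAL1 were not called, with changes of 0.07, 0.03 and 0.35. TKL1, for the main transketolase, had 3287, 3791 and 3152 at day 5, against 6545, 6676 and 6700.4 at day 2 (-0.96 ± 0.15, adjusted p = 1.76e-04). RKI1 makes ribose 5-phosphate for nucleotides and had 252, 251 and 291 at day 5, against 1626, 629 and 551 at day 2 (-1.59 ± 0.29, adjusted p = 7.40e-04), with day 2 replicate 1 far above the other arrays.

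**Figure D3:**
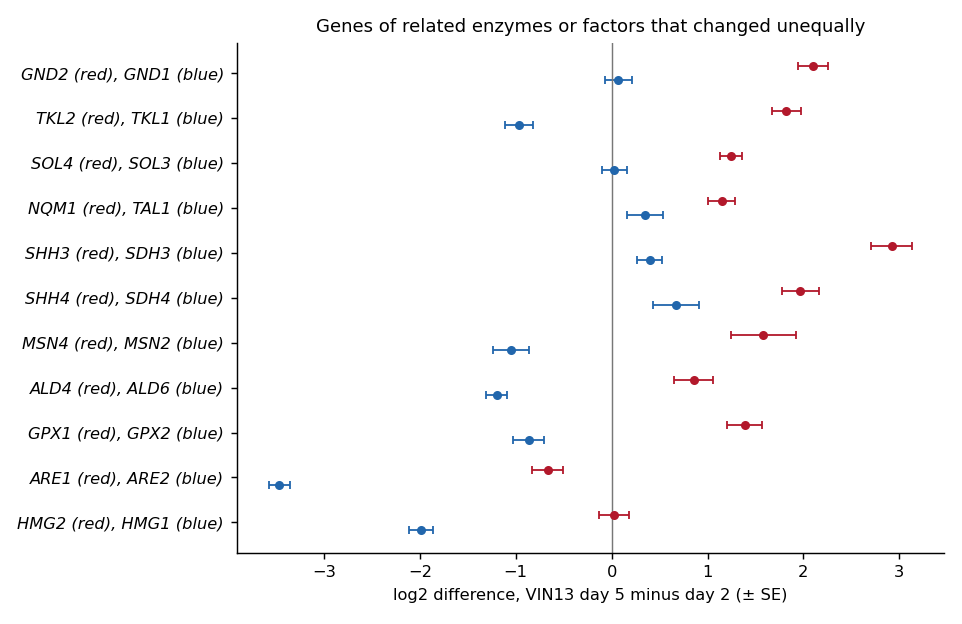
Change of 11 pairs of genes whose products are related enzymes or factors, as the log2 difference of VIN13 day 5 minus day 2, with the standard error as bars. The pairs shown are ones that changed unequally, so they do not stand for related genes in general. In each pair the first gene named is in red and the second in blue, and the minor genes GND2, TKL2, SHH3 and SHH4 rose by 1.82 to 2.92 whereas GND1 lay near 0 and TKL1 fell by 0.96.

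Most genes of the tricarboxylic acid cycle and of ATP synthase rose. Of the 16 genes of the tricarboxylic acid cycle 12 rose and none fell, with a median of 0.58. That count was 5 without day 2 replicate 1, 7 without day 5 replicate 1 and 6 without day 5 replicate 2. IDH1, for a subunit of NAD-dependent isocitrate dehydrogenase, had 6605, 6291 and 4838 at day 5, against 1816, 2936 and 2744 at day 2 (1.25 ± 0.20, adjusted p = 2.81e-04). ATP synthase genes rose as well: 16 of 20 passed the test upward, none fell, and the median was 0.53. ATP4, for a subunit of the stalk that holds the catalytic head, had 8086, 8511 and 8969 at day 5, against 3188, 4032 and 4073 at day 2 (1.18 ± 0.11, adjusted p = 1.32e-06). Of the 18 genes of cytochrome c oxidase and its assembly 8 rose, with a median of 0.31. SCO2 and COX11, both for proteins that handle its copper, rose by 0.74 and 0.72. With the 4 arrays that had moved alike left out the median of the cycle was 0.36 and that of cytochrome c oxidase 0.19. Day 2 replicate 1 was the array with the highest ACT1 ratio, and the part of RNA integrity in these shifts was not tested beyond a fit with that ratio as a covariate, in which the medians were 0.34 and 0.31.

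The largest mitochondrial changes were in paralogs of succinate dehydrogenase subunits. SHH3, a paralog of the membrane subunit gene SDH3, had 4182, 4307 and 5535 at day 5, against 386, 608 and 909 at day 2 (2.92 ± 0.22, adjusted p = 1.66e-07), 7.57-fold higher. SHH4, the paralog of SDH4, had 1682, 1937 and 1909.8 at day 5, against 286, 531 and 629 at day 2 (1.97 ± 0.19, adjusted p = 2.56e-06). SDH3 and SDH4 themselves changed by 0.40 ± 0.13 (adjusted p = 0.0238) and 0.67 ± 0.24 (adjusted p = 0.0408). Both of these calls ended without day 2 replicate 1 and without day 5 replicate 2, that of SDH3 also without day 5 replicate 3, and that of SDH4 also without day 5 replicate 1. Their changes lay between 0.22 and 0.52 for SDH3 and between 0.28 and 0.87 for SDH4 as the 6 arrays were left out in turn.

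Electrons enter the yeast chain through single-subunit NADH dehydrogenases. The genes of both external enzymes rose, whereas NDI1, for the internal enzyme, fell. The call of NDI1 ended without day 2 replicate 2, without day 2 replicate 3 and without day 5 replicate 3. NDE2 had 792, 813 and 1096 at day 5, against 346, 339 and 514 at day 2 (1.15 ± 0.15, adjusted p = 4.29e-05), and NDE1 rose by 0.95. Of the 17 genes of these enzymes and cytochrome bc1 together, 3 rose and 2 fell, with a median of 0.02, and of 18 genes of pyruvate dehydrogenase and the carriers 4 rose and 1 fell, with a median of 0.04. Of the 65 mitochondrial ribosomal protein genes 15 rose, a count of 7 without day 2 replicate 2, 9 without day 2 replicate 3 and 8 without day 5 replicate 3, and of 27 genes of mitochondrial import none rose and 2 fell.

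HAP4 encodes the limiting subunit of the activator of respiratory genes, and it had 7493, 8271 and 5403 at day 5, against 2034, 4521 and 3896 at day 2 (1.07 ± 0.25, adjusted p = 0.00367), with the day 2 arrays far apart. MOT3 and CYC8 belong to the repression of hypoxic and glucose-repressed genes. MOT3, a repressor gene, had 369, 551 and 365 at day 5, against 1341, 822 and 1131 at day 2 (-1.32 ± 0.23, adjusted p = 4.53e-04), and CYC8, for a subunit of the general corepressor, fell by 0.84. RGT2 and SNF3 encode the plasma membrane sensors of high and low glucose, and they changed in opposite directions. RGT2, the high glucose sensor gene, had 381, 468 and 432 at day 5, against 766, 816 and 825 at day 2 (-0.89 ± 0.14, adjusted p = 1.99e-04). SNF3, the low glucose sensor gene, had 721, 787 and 708 at day 5, against 349.7, 535 and 579.7 at day 2 (0.61 ± 0.14, adjusted p = 0.00405), and changed by 0.40 without day 2 replicate 1.

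Among the genes of sugar transport HXT5 changed most. Of the 15 transporter and sensor genes 4 rose and 2 fell. HXT5 encodes a transporter of slow growth and stationary phase, and had 1374, 1759.9 and 3043 at day 5, against 193, 301 and 304 at day 2 (2.83 ± 0.32, adjusted p = 1.18e-05), 7.09-fold higher. HXT1, for a low-affinity transporter, rose by 0.66, whereas HXT3 and HXT7 were not called, with changes of 0.18 and 0.13. The HXT genes resemble each other, as do the AAD, IMD and PAU genes, the histone genes and pairs of ribosomal protein genes, so their probe sets may share signal. Glycolysis as a list hardly moved: of 15 genes 1 rose and 1 fell, and the median was 0.02. The risen gene was PGI1, for phosphoglucose isomerase (0.39 ± 0.10, adjusted p = 0.00607), and the fallen one PFK27, which makes an activator of phosphofructokinase (-0.88 ± 0.21, adjusted p = 0.00422).

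Genes of stored carbohydrate rose in part. Of the 11 glycogen genes 7 rose, with a median of 0.57, and none fell. Without day 2 replicate 1 the median was 0.36, and with the ACT1 ratio as a covariate 0.38. GAC1 encodes a regulatory subunit that directs a phosphatase to glycogen synthase, and had 3355, 3262 and 2997 at day 5, against 875, 1722 and 1721 at day 2 (1.21 ± 0.24, adjusted p = 0.00121). Of the 10 trehalose genes 5 rose (3 without day 2 replicate 1 and 3 without day 5 replicate 3) and none fell. TSL1, for a regulatory subunit of the synthase complex, had 10095, 10386 and 9952 at day 5, against 4850.1, 7542 and 7458 at day 2 (0.64 ± 0.18, adjusted p = 0.0101). Of the 11 glycerol genes 3 rose and 1 fell, with a median of 0.23. GPP1, for a glycerol phosphatase, and GCY1, for an enzyme of glycerol breakdown, rose by 0.88 and 0.84. The fallen gene was GPP2, the paralog of GPP1. Its call ended without day 2 replicate 2, day 2 replicate 3, day 5 replicate 1 or day 5 replicate 3.

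General stress genes rose in part, and the largest rise of the comparison was among them. Of 41 genes 19 rose and 4 fell, with a median of 0.32 (0.19 without the 4 arrays). HBT1, whose product binds the ubiquitin-like protein Hub1, had 2321, 2945 and 3133 at day 5, against 146, 275 and 337 at day 2 (3.45 ± 0.28, adjusted p = 4.47e-07), 10.9-fold higher. GRE1, for a hydrophilin of dry and salt stress, had 3776, 4575 and 5054 at day 5, against 328, 468 and 611 at day 2 (3.24 ± 0.19, adjusted p = 1.46e-08). Each day 5 array of both genes exceeded each day 2 array several fold. Both count among the largest rises, which were taken only from genes without overlap, so this separation adds no support. HSP12, for a small protein that stabilises the plasma membrane, had 14523, 14360 and 16166 at day 5, against 4999, 5485 and 6101 at day 2 (1.44 ± 0.10, adjusted p = 1.43e-07). XBP1 encodes a repressor of cell cycle genes that stress induces, and had 607, 655 and 298 at day 5, against 106, 200.0 and 136 at day 2 (1.68 ± 0.35, adjusted p = 0.00166).

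The paired activators of the general stress response parted. MSN2 fell, with 916, 1041 and 743 at day 5, against 1429.8, 2291 and 1976 at day 2 (-1.05 ± 0.19, adjusted p = 6.74e-04). MSN4, which was chosen after its values were seen, rose, with 2667, 2754 and 2701 at day 5, against 431, 1358 and 1208 at day 2 (1.58 ± 0.34, adjusted p = 0.00214). Its lowest day 2 array was replicate 1.

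Chaperone lists held few calls. Of the 18 Hsp70 and Hsp40 genes 3 rose and 2 fell, and SSA3, a cytosolic Hsp70 gene of stationary phase, had 2908, 3392 and 2711 at day 5, against 519.7, 1018 and 1009 at day 2 (1.86 ± 0.19, adjusted p = 5.34e-06). SSA4, the heat-induced Hsp70 gene, HSP104, for the disaggregase, and HSP26, for a small heat shock protein, were not called, with changes of -0.19, 0.10 and -0.01. These 3 were chosen after their values were seen. The 35 proteasome genes held no call, and 1 had an unadjusted p under 0.05 in each direction. In the oxidative stress list 7 of 32 rose. CTA1, the peroxisomal catalase gene, had 1809, 1777 and 2389.8 at day 5, against 516, 465 and 507 at day 2 (1.96 ± 0.13, adjusted p = 4.04e-08). GPX1, for a glutathione peroxidase, had 7787, 7635 and 7078 at day 5, against 2049.7, 3571 and 3155 at day 2 (1.39 ± 0.18, adjusted p = 4.56e-05), while its paralog GPX2 fell by 0.87. ECM4, for a glutathione transferase, rose by 0.95.

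Genes of cyclic AMP signalling changed in both directions. The cyclic AMP pathway keeps protein kinase A active in the presence of sugar, and 9 of the 27 genes of this kinase and of TOR rose and 3 fell. RGS2, for an inhibitor of the G protein that senses glucose, had 2229.9, 2530.1 and 1498 at day 5, against 493, 828 and 659 at day 2 (1.63 ± 0.27, adjusted p = 3.42e-04). PDE1, for a phosphodiesterase that breaks cyclic AMP down, had 4715, 4393 and 4478 at day 5, against 2458, 2381 and 2469 at day 2 (0.89 ± 0.07, adjusted p = 6.28e-07). IRA1, for a GTPase activator that switches Ras off, rose by 0.85, and TPK3, for a catalytic subunit of the kinase, fell by 0.56. RAS1, for a Ras protein itself, lay below the background bound at day 2, with 139, 139.8 and 166 at day 5, against 39.8, 79.3 and 80.4 at day 2, and was at least 1.5-fold higher (adjusted p = 5.06e-04).

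Genes of ribosome assembly fell. Of 46 genes of small subunit assembly 26 fell and 1 rose, with a median of -0.45. Of 63 genes of large subunit assembly 40 fell and 1 rose, with a median of -0.47. UTP13, for a component of the complex that processes the small subunit RNA, had 328, 361 and 396 at day 5, against 1362, 710.5 and 622 at day 2 (-1.19 ± 0.23, adjusted p = 0.00108). ENP1 and UTP4, for other small subunit factors, fell, with changes of -0.95 and -0.94. RRB1, for the chaperone that delivers ribosomal protein L3, had 630.4, 656 and 703 at day 5, against 1976, 1567 and 1292 at day 2 (-1.24 ± 0.13, adjusted p = 6.91e-06). MAK21, for a factor that exports large subunit precursors, and YTM1, for another large subunit factor, fell, with changes of -1.09 and -1.01. Day 2 replicate 1 was the highest array for UTP13, RRB1 and MAK21, and replicates 2 and 3 of day 2 also lay above all day 5 arrays. RIO1, for a kinase of late small subunit maturation, was the small subunit gene that rose, with 1631, 1771 and 1338 at day 5, against 445, 739.7 and 624 at day 2 (1.39 ± 0.16, adjusted p = 1.67e-05).

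Genes that make ribosomal RNA and charge transfer RNA fell in part. Of the 16 genes of RNA polymerase I and its factors 5 fell and 1 rose, and RRN7, for an initiation factor, had 162, 174 and 145 at day 5, against 378, 319.7 and 347 at day 2 (-1.05 ± 0.14, adjusted p = 5.90e-05). RPA135, for the second largest subunit, fell by 0.76. Of 20 cytosolic tRNA synthetase genes 13 fell and none rose, with a median of -0.38. KRS1, for lysyl-tRNA synthetase, had 1753, 1737 and 1509.5 at day 5, against 7014, 5746 and 4594 at day 2 (-1.77 ± 0.13, adjusted p = 2.17e-07). MES1 and FRS1, for the methionyl and a phenylalanyl enzyme subunit, fell, with changes of -0.88 and -0.75. Among 39 translation factor genes 15 fell and 2 rose. ANB1, the hypoxic gene for the elongation factor eIF5A, had 3818, 3847 and 3567 at day 5, against 9552, 7266 and 7085 at day 2 (-1.07 ± 0.11, adjusted p = 3.33e-06), and GCN3, for a subunit of the exchange factor eIF2B, fell by 0.66.

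Few genes of the ribosomal proteins themselves passed the test. Of the 70 large subunit genes 11 fell, and of the 52 small subunit genes 6 fell and 1 rose, beside 22.2% of all genes fallen. The medians were -0.16 and -0.14. These counts rested on single arrays. Without day 2 replicate 1 there were 3 and 2 fallen genes, without day 2 replicate 3 there were 24 and 13, without day 5 replicate 1 there were 7 and 2, and without day 5 replicate 2 there were 6 and 2.

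Genes for both steps of guanine nucleotide synthesis fell. IMP dehydrogenase begins the branch to GMP, and its genes IMD2, IMD3 and IMD4 changed by -1.17, -1.09 and -1.14, all of them falls (IMD4 by -0.74 without day 2 replicate 1). GUA1, for the GMP synthase that follows, had 1199, 1286 and 1210 at day 5, against 4570.4, 2397 and 1967 at day 2 (-1.17 ± 0.21, adjusted p = 5.86e-04). Day 2 replicate 1 was the highest array of all 4 genes, and no day 5 array reached a day 2 array. In the whole purine and pyrimidine list 11 of 27 fell and 5 rose (3 without day 2 replicate 1, without day 5 replicate 1 or without day 5 replicate 2). URA1, chosen after its values were seen and coding for the dihydroorotate dehydrogenase that lets yeast make pyrimidines without oxygen, fell by 1.06. URA10, for the minor orotate phosphoribosyltransferase, rose by 0.70.

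Genes of the cycle of S-adenosylmethionine, the methyl donor of the cell, fell at several steps. Of the 19 genes 9 fell and 2 rose, with a median of -0.35. MET6, for methionine synthase, had 5706, 5919.7 and 4741 at day 5, against 11059, 11916 and 11870 at day 2 (-1.09 ± 0.13, adjusted p = 2.23e-05). SAM2, for a synthetase of the methyl donor, had 5014, 5164 and 5104 at day 5, against 12063, 12410 and 12603 at day 2 (-1.28 ± 0.10, adjusted p = 1.97e-07), and SAM1, for the other, fell by 0.98. The groups lay far apart on every array. CYS4, which draws homocysteine off to cysteine, fell by 0.99. SAH1 and ADO1, chosen after their values were seen, clear away the products of methylation, and fell, with changes of -0.80 and -0.70. HOM2, for an enzyme common to methionine and threonine synthesis, rose by 0.57. One-carbon genes fell beside them, 6 of 14 (3 without day 2 replicate 2), and MIS1, for a mitochondrial enzyme of tetrahydrofolate, had 685, 716 and 835 at day 5, against 2512, 1982 and 1750.1 at day 2 (-1.45 ± 0.12, adjusted p = 6.28e-07). Of 16 genes of sulfate assimilation 3 fell. MET8 makes siroheme, the cofactor of sulfite reductase. It lay below the background bound at day 5, with 67.5, 74.2 and 67.5 at day 5, against 251, 156 and 189 at day 2, and was at least 1.9-fold lower (adjusted p = 3.32e-06).

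Nitrogen uptake changed gene by gene. ALP1, for an arginine permease, had 130.2, 132 and 156 at day 5, against 1168, 1215 and 1525 at day 2 (-3.08 ± 0.20, adjusted p = 4.83e-08), 8.44-fold lower and the largest fall among the permeases. BAP2, for a permease of branched-chain amino acids, had 1453, 1437 and 749.5 at day 5, against 227, 679.8 and 494 at day 2 (1.42 ± 0.35, adjusted p = 0.00618). The gap between the groups was small for BAP2, whose lowest day 5 array stood just above its highest day 2 array. OPT2, for an oligopeptide transporter of the plasma membrane, had 4770, 4999.5 and 3095 at day 5, against 255, 486 and 644 at day 2 (3.23 ± 0.29, adjusted p = 1.32e-06), 9.4-fold higher, and OPT1, for a transporter that also carries glutathione, had 3289.6, 3596 and 2381 at day 5, against 664, 1474 and 901 at day 2 (1.65 ± 0.28, adjusted p = 4.08e-04). MEP1, for an ammonium permease, rose by 0.91, and VBA1, for a permease of the vacuole, fell by 0.83. GLT1, for glutamate synthase, rose by 0.67, and GZF3, for a repressor of nitrogen genes, fell by 0.82.

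Allantoin is a nitrogen store of plants that yeast can use when better sources run low, and the genes for its use did not move together. DAL4, the permease gene, rose, with 299, 576 and 392 at day 5, against 112, 163 and 126 at day 2 (1.51 ± 0.23, adjusted p = 1.39e-04). DAL1, for the first enzyme of breakdown, fell, with 270.4, 343 and 286 at day 5, against 662, 764 and 883 at day 2 (-1.31 ± 0.24, adjusted p = 7.37e-04). DAL2 and DAL7, for later steps, fell, with changes of -0.92 and -0.77. Amino acid synthesis gave falls and rises. Of 18 genes of aromatic amino acids and histidine 7 fell and 2 rose, with a median of -0.30. Of 9 lysine genes 1 fell and 1 rose, and of 12 branched-chain genes 2 fell and 1 rose. LYS20, for homocitrate synthase of the lysine pathway, had 4399.8, 4456 and 3805 at day 5, against 1925, 2347 and 1800.1 at day 2 (1.06 ± 0.10, adjusted p = 2.56e-06). ARO3, for an entry enzyme of the aromatic pathway, rose by 1.17 against most of its list, and LEU9, for the minor isopropylmalate synthase, had 317, 340.0 and 264 at day 5, against 976, 718 and 663 at day 2 (-1.30 ± 0.14, adjusted p = 5.88e-06).

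The 3 genes described here of high-affinity iron and copper uptake fell. FTR1, for the iron permease of the plasma membrane, had 142, 154 and 147 at day 5, against 849.5, 701 and 702 at day 2 (-2.22 ± 0.13, adjusted p = 1.13e-08), 4.67-fold lower. CCC2 loads copper into the oxidase that works with this permease, and its gene had 342, 403 and 415 at day 5, against 1104, 1146 and 1408 at day 2 (-1.61 ± 0.11, adjusted p = 4.83e-08). FRE1, for a reductase of iron and copper at the cell surface, fell by 1.41. The 3 genes were low on every day 5 array. The wider iron list did not follow them: of its 30 genes 9 rose (4 without day 2 replicate 1) and 6 fell, and ISU1, for the scaffold on which iron-sulfur clusters are made, rose by 0.79.

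Of 14 zinc genes 5 fell and 2 rose. ZRT1, the high-affinity zinc permease gene, and ZAP1, for the activator of the zinc response, fell, with changes of -0.86 and -0.91. COT1, for a vacuolar transporter, and IZH1, for a membrane protein of zinc balance, fell, with changes of -0.85 and -0.83. ZPS1, for a wall protein that zinc shortage induces, had 748, 714 and 517 at day 5, against 103, 100.1 and 125 at day 2 (2.42 ± 0.30, adjusted p = 2.53e-05), and rose. In the vitamin list 8 of 21 fell (5 without day 2 replicate 1 and 5 without day 5 replicate 1). BIO2, for biotin synthase, had 1344, 1364 and 1621 at day 5, against 3056, 3142 and 2860.4 at day 2 (-1.06 ± 0.12, adjusted p = 1.11e-05). Of the 9 genes of heme synthesis and breakdown, a separate list, 2 fell and none rose, with a median of -0.10, beside 22.2% of all genes fallen. HEM2, for an early enzyme of heme synthesis, had 2416, 2512 and 1898 at day 5, against 6266, 5534 and 6923 at day 2 (-1.45 ± 0.14, adjusted p = 3.32e-06).

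Genes of the end of cell division rose although day 5 is labelled stationary. After mitosis the daughter cell expresses enzymes that cut the septum, and 8 of 12 genes of this group rose and none fell, with a median of 0.62. DSE2, for a glucanase-like wall protein of daughter cells, had 726, 675 and 669.5 at day 5, against 79.8, 128 and 139 at day 2 (2.45 ± 0.39, adjusted p = 2.42e-04). CTS1, the chitinase gene, had 3598, 3376 and 2962 at day 5, against 1218, 1863 and 1782 at day 2 (1.04 ± 0.15, adjusted p = 8.97e-05). AMN1, for a protein that ends mitotic exit signalling, rose by 0.84, and DSE1, for another daughter protein, by 0.81. SCW11, for a further glucanase, changed by 1.23 ± 0.33 (adjusted p = 0.0103), a call that ended without day 2 replicate 1, where the change was 1.01.

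Cyclin genes changed in both directions. Of 25 genes of cyclins and G1 control 8 rose and 5 fell. CLN1, for a G1 cyclin, had 397, 430.5 and 334 at day 5, against 125, 144 and 133 at day 2 (1.42 ± 0.18, adjusted p = 3.93e-05), and CLB1, for a mitotic cyclin, had 337, 431 and 351 at day 5, against 189.8, 164 and 146 at day 2 (1.09 ± 0.21, adjusted p = 9.97e-04). PCL1, for a G1 cyclin of another kinase, lay below the background bound at day 2, with 195, 255 and 115 at day 5, against 66.2, 46.2 and 30.2 at day 2, and was at least 1.8-fold higher (adjusted p = 1.45e-04). FAR1, for the inhibitor that stops the cycle in response to pheromone, lay below the bound at day 5, with 29, 25.7 and 39.4 at day 5, against 115, 118 and 133 at day 2, and was at least 1.2-fold lower (adjusted p = 5.34e-06).

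Genes of DNA replication fell. Of 35 genes 19 fell (12 without day 5 replicate 1) and 2 rose. POL12, for a subunit of the polymerase that primes replication, had 268, 334 and 419 at day 5, against 972, 687 and 716 at day 2 (-1.19 ± 0.19, adjusted p = 2.04e-04), and MCM2, for a subunit of the replicative helicase, fell by 0.66. RNR1, for the large subunit of the reductase that makes deoxynucleotides, went the other way, with 1621, 1837 and 1408 at day 5, against 577, 832 and 792 at day 2 (1.14 ± 0.28, adjusted p = 0.00567). Histone genes gave 4 rises and 2 falls of 13, with HTB2, for histone H2B, up by 0.73, and SPT21, for an activator of histone genes, down by 0.69.

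Some genes of the mating pheromone response were high at day 2. PRM7, a gene that pheromone induces, had 901, 958 and 852 at day 5, against 7699.9, 5953 and 4901 at day 2 (-2.73 ± 0.15, adjusted p = 9.49e-09), 6.64-fold lower. PRM5, another gene induced by pheromone and by stress on the wall, had 308, 322 and 530.3 at day 5, against 3037, 1718 and 1806 at day 2 (-2.44 ± 0.23, adjusted p = 1.79e-06). AGA1, for the anchor of the a-cell agglutinin, had 157, 169 and 178 at day 5, against 524, 480.2 and 648 at day 2 (-1.61 ± 0.16, adjusted p = 3.15e-06). The 3 genes were lower on each day 5 array. PRM6 lay below the bound at day 2, with 191, 215 and 318 at day 5, against 69, 73 and 79.5 at day 2, and was at least 2.3-fold higher (adjusted p = 2.54e-06). In the whole mating list 5 of 38 genes rose and 8 fell, beside 15.5% of all genes risen and 22.2% fallen. The list as a whole lay near those shares, with a median of -0.07. Of the markers of haploid cells in it, STE3, MFA2, HO and BAR1 lay below the bound in both groups and were not called. These markers were not picked by the naming rule given below, and they do not stand for the rest of the list. SPR28, a septin gene of spore formation, had 129, 133 and 191 at day 5, against 835, 406 and 396 at day 2 (-1.68 ± 0.24, adjusted p = 8.67e-05). Its fall went against most called genes of its list. Of 39 genes of meiosis and sporulation 10 rose and 6 fell, with a median of -0.03. With the 4 arrays that had moved alike left out, 13 rose and 14 fell. Counts of this list without single arrays are not given here.

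**Figure D4:**
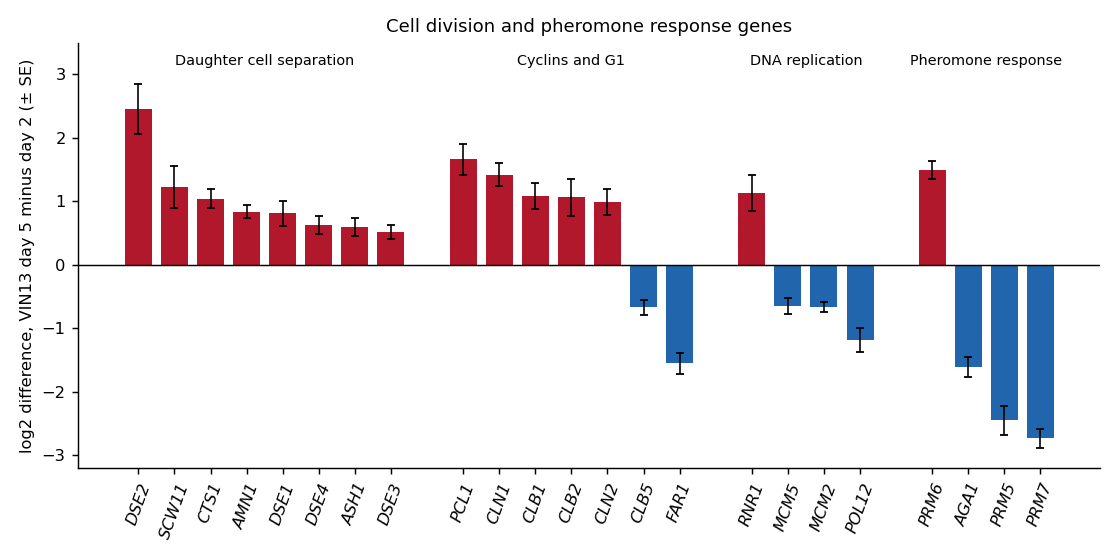
Change of 23 genes of daughter cell separation, cyclins and G1 control, DNA replication and the pheromone response, as the log2 difference of VIN13 day 5 minus day 2, with red bars for genes that rose, blue bars for genes that fell and standard errors as lines. The 8 daughter genes drawn all rose and DSE2 the most, while POL12, MCM2 and MCM5 fell and the pheromone genes reached -2.73. The list of daughter genes from which those 8 were picked holds 12 measured genes, of which 4 were not called, with changes down to -0.23. PCL1, CLN2, CLB2 and PRM6 lay below the background bound at day 2 and FAR1 at day 5, so their bars depend on the 16 added before the logarithm. CLN2 and CLB2 were chosen after their values were seen.

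More genes of the cell wall rose than fell. Of 33 genes of wall synthesis 10 rose and 2 fell. RLM1, for the transcription factor of the wall integrity pathway, had 1657, 1635 and 1488 at day 5, against 607, 1011 and 854 at day 2 (0.97 ± 0.14, adjusted p = 1.12e-04), and MNN1, for a mannosyltransferase of wall glycoproteins, rose by 0.89. Of 20 mannoprotein and adhesin genes 7 rose (4 without day 5 replicate 1 and 3 without day 5 replicate 2) and 1 fell. PIR1, for a wall protein linked to glucan, had 2483, 2334 and 1619.6 at day 5, against 596, 860.1 and 986 at day 2 (1.39 ± 0.20, adjusted p = 9.44e-05). The seripauperins, wall proteins typical of wine fermentation, gave 1 rise and 2 falls of 13, and the rise was that of PAU21 (1.52 ± 0.23, adjusted p = 1.83e-04).

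Several of the largest changes lay outside these pathways. AAD10, of the aryl alcohol dehydrogenase family, had 7101, 8544 and 6896 at day 5, against 1083, 1284 and 1345 at day 2 (2.59 ± 0.11, adjusted p = 1.04e-09), 6-fold higher. ADH6, for an NADPH-dependent alcohol dehydrogenase that reduces aldehydes, had 1803, 1759 and 1331 at day 5, against 5867, 4765 and 3746 at day 2 (-1.53 ± 0.19, adjusted p = 2.42e-05). PNS1, for a membrane protein related to choline transporters, had 1731, 2031 and 1878 at day 5, against 143, 385 and 532 at day 2 (2.53 ± 0.30, adjusted p = 1.72e-05). RPI1, for a transcription factor known as an inhibitor of Ras signalling, had 2139, 2247 and 1906 at day 5, against 228, 752 and 658 at day 2 (2.07 ± 0.31, adjusted p = 1.32e-04). In PNS1 and RPI1 the spread came mainly from day 2, where replicate 1 was lowest. AQR1, for an exporter of amino acids and short acids, rose by 1.48.

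AMF1, for an ammonium transporter, had 270.0, 280.5 and 289.5 at day 5, against 2146, 1913 and 2320.2 at day 2 (-2.85 ± 0.13, adjusted p = 2.32e-09). TPA1, for a hydroxylase that acts on a ribosomal protein, had 877, 1005 and 1107 at day 5, against 6676, 5195 and 4795 at day 2 (-2.45 ± 0.14, adjusted p = 1.46e-08). MSC7, of the aldehyde dehydrogenase family, had 1771, 1932 and 2621 at day 5, against 10542, 9789.6 and 10085 at day 2 (-2.28 ± 0.12, adjusted p = 6.48e-09). All 3 were several fold lower on each day 5 array. They were named for the size of their falls among genes without overlap, so this separation followed from the choice. ALG5, for an enzyme of protein glycosylation, and CGI121, for a subunit of the complex that modifies transfer RNA, fell, with changes of -2.02 and -1.89. YHR213W-A, a short open reading frame with no role known to the annotation, had 242, 258 and 303 at day 5, against 3249.5, 2065 and 1996 at day 2 (-3.08 ± 0.21, adjusted p = 8.23e-08). UTR5, of unknown function, lay below the background bound at day 2, with 342, 381 and 248 at day 5, against 21.2, 34.7 and 46.4 at day 2, and was at least 3.2-fold higher (adjusted p = 5.33e-07).

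By day 14 the genes that led at day 5 had taken different courses. The day 14 values are given as levels only, since genes picked for their day 5 values share those arrays with any test. HBT1 had 781, 635 and 538 at day 14, below all its day 5 arrays and above all its day 2 arrays. DSE2 had 126, 68.2 and 63.5 at day 14, and those arrays overlapped with day 2. OPT2 had 4739.9, 3393 and 2982 and AAD10 had 6984, 7754 and 7999, both overlapping with day 5. HXT5 had 4402, 5524 and 4905 at day 14 and RPI1 4931, 5268 and 4124, above all their day 5 arrays. Among the fallen genes, ALP1 had 44.4, 44.1 and 44.4, all under the background bound and under day 5, whereas ARE2 had 524, 462 and 523, above day 5 and under day 2. ERG13 and ACS2 went further down, with 1992, 1169 and 1671 for ERG13 and 1594, 967 and 1487 for ACS2.

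**Figure D5:**
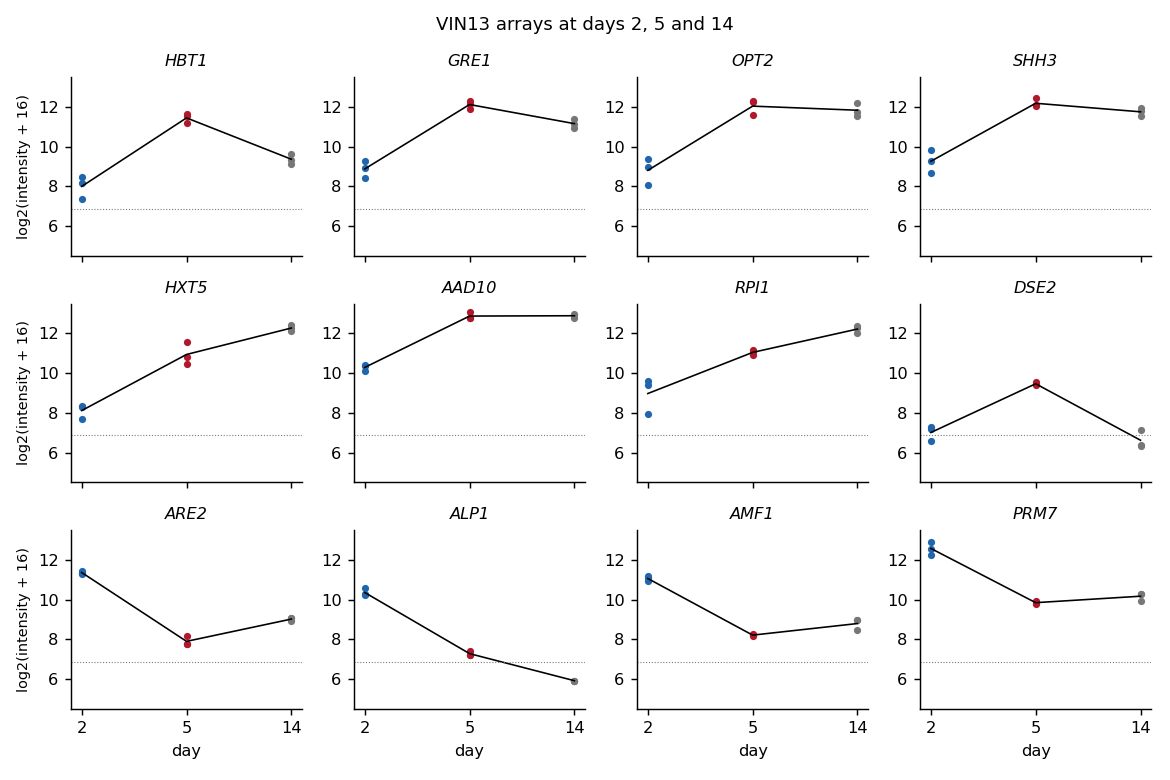
Level of 12 genes, as log2(intensity + 16), on the VIN13 arrays of day 2 (blue), day 5 (red) and day 14 (grey), with points for arrays, a line through the group means and the background bound dotted. The days are drawn at equal distances. HXT5 and RPI1 stand highest at day 14, HBT1 and DSE2 peak at day 5, and ALP1 ends under the bound.

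BM45 went through the same interval in the same must, with 3 arrays at day 5 and 2 at day 2 that share none with VIN13. Of the 153 genes at least 2-fold higher in VIN13 at day 5, 122 were also at least 2-fold higher in BM45, which is 79.7% of the VIN13 genes and 30.1% of the 405 of BM45. Of the 146 at least 2-fold lower in VIN13, 120 were so in BM45, 82.2% of the VIN13 genes and 24.8% of the 484 of BM45. The base for both shares is that, of all 5449 genes, 405 were at least 2-fold higher and 484 at least 2-fold lower in BM45. A test of the difference between the changes called 356 genes (6.53%) with a more positive change in VIN13 and 116 (2.13%) with a more negative one. That total of 472 depended on single arrays: it was 1127 without VIN13 day 2 replicate 1 and 1348 without BM45 day 2 replicate 2, against 184 without BM45 day 5 replicate 2 and 204 without VIN13 day 5 replicate 2. With each array centred on its median the split was 238 against 224, and with quantile normalization 294 against 278.

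The change differed between the strains, always more positive in VIN13, for 8 of the 13 genes of peptide and allantoin use and for 8 of the 13 seripauperins. The seripauperin count was 5 without VIN13 day 5 replicate 2, without VIN13 day 2 replicate 3, without BM45 day 5 replicate 2 or without BM45 day 2 replicate 4. The seripauperin medians were -0.05 in VIN13 and -0.91 in BM45. DAL4 changed by 1.51 ± 0.23 in VIN13 and by -3.28 ± 0.25 in BM45, a difference of 4.79 ± 0.34 (adjusted p = 1.45e-06). DAL7 changed by -0.77 ± 0.15 in VIN13 and by -3.86 ± 0.17 in BM45, a difference of 3.09 ± 0.23 (adjusted p = 1.92e-06), and the differences for DAL1 and DAL2 were 1.98 ± 0.36 and 2.01 ± 0.29. The peptide transporter gene OPT2 changed by 3.23 ± 0.29 in VIN13, while in BM45 it averaged 28.7 at day 5 and 15.7 at day 2, both below the background bound (adjusted p = 0.00243 for the difference). DAL4 and DAL1 in BM45 averaged 31.0 and 85.2 at day 5, also below the bound, so the sizes given for their changes there and for their strain differences depend on the 16 added before the logarithm. In the sterol pathway HMG1 changed by -1.99 in VIN13 and by -3.38 in BM45 (adjusted p = 0.00115), whereas ARE2 changed by -3.47 in VIN13 and by -2.35 in BM45 (adjusted p = 0.00156). MET6 changed by -1.09 in VIN13 and -0.10 in BM45 (adjusted p = 0.00785), and HSP12 by 1.44 in VIN13 and 0.53 in BM45 (adjusted p = 0.00399). AAD10 and LYS20 changed more positively in VIN13 by 1.07 and 0.80. ADH6, KRS1 and BIO2, all of which fell in VIN13, fell less there than in BM45, with differences of 1.47, 1.05 and 1.0. The calls of the single genes from DAL4 to BIO2 held without any single array of the 4 groups. ZPS1 differed by 1.99 ± 0.45 (adjusted p = 0.016), and its call held too, but its value lay between 1.10 and 2.89 as arrays were left out.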

How the data were processed

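The deposited intensities, 1 linear value per probe set and array, were used as the authors gave them, with no further normalization. Per the submitters' processing notes they were made with Affymetrix Expression Console. Its version and its summarisation and normalization settings were not given in the sources used here. Of 10928 probe sets the platform annotation lists 7245; 5498 matched 5449 S. cerevisiae genes, and for the 47 genes with several probe sets the brightest on average was kept. One model with a mean per strain and day was fitted to log2(intensity + 16) of all 17 arrays with limma 3.58.1 (lmFit, eBayes) under R 4.3.3, two-sided, with Benjamini-Hochberg adjustment over the 5449 genes. It had 11 residual and 3.806 prior degrees of freedom. Where a group's mean lay below the background bound (intensity 100.7), each of its arrays was raised to the bound to give an "at least" fold. Run on simulated data with known changes and noise independent between arrays, the fit recovered 95 of 100 genes changed by 2-fold. Some real arrays moved alike, so this share does not give the power of the comparison. The number of arrays limits the precision.

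The gene lists, from textbook knowledge, and the comparison itself were chosen with earlier results of these data known. Named genes were the 20 largest rises and 20 largest falls with groups that do not overlap, up to 4 called members of a list with the largest change and the largest against its majority, any member of a list of 16 or fewer, up to 2 members with the smallest p where a list had no call, and up to 10 with the largest strain difference; the text names fewer. No sequences are printed, and promoter motifs were not analysed here. Alternatives were other pseudocounts, normalizations, weights, filters, sample sets, a block by replicate number, the ACT1 ratio as a covariate, and each array left out in turn.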

Additional observations from a re-analysis of the deposited data

Results flagged for a closer look

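Genes whose change from day 2 to day 5 differed between the strains are given by that difference, the change in VIN13 minus the change in BM45 on the log2 scale, each with an adjusted p under 0.05 in limma. NDI1 and GPP2 were not part of this count. Of the other genes named in the text 35 differed, and for 18 of them the call held without each of the 11 arrays of the 4 groups in turn. A positive value is a more positive change in VIN13.

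The 6 largest differences were 4.79 for DAL4, 3.09 for DAL7, 2.74 for OPT2, 2.01 for DAL2, 1.99 for ZPS1 and 1.98 for DAL1. Some values rest on group means below the background bound and depend on the 16 added before the logarithm: VIN13 at day 2 for RAS1 and PRM6, and BM45 at day 5 for DAL4, DAL1, ALP1, OPT2 and PRM6 and at day 2 for OPT2 and PRM6. Among metabolic enzymes the values were 1.47 for ADH6, 1.07 for AAD10, -1.0 for MET6, -0.63 for SAM2, 0.84 for MIS1, 0.80 for LYS20, 1.0 for BIO2, 0.75 for TKL1, 1.20 for GUA1 and -0.69 for URA10. In lipid metabolism they were 1.39 for HMG1, 0.65 for ERG7, -1.12 for ARE2, -0.58 for ECM22, 0.49 for FAA1 and 0.70 for OPI1. For transport they were -1.23 for ALP1, 0.81 for FTR1 and -0.43 for HXT7. Chaperone and stress genes gave 0.91 for HSP12, -0.59 for HSP104 and -0.89 for SSA4. The remaining genes were KRS1 at 1.05, FRS1 at 0.77, YTM1 at 1.01, RIO1 at 0.91, RAS1 at 1.17, PRM6 at 0.98 and SPT21 at 0.71.

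The call held without each array for AAD10, ADH6, ARE2, BIO2, DAL1, DAL2, DAL4, DAL7, HMG1, HSP12, KRS1, LYS20, MET6, MIS1, OPT2, PRM6, SSA4 and ZPS1, and ended without at least 1 array for the others.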

How the results depend on the processing

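The counts of 842 risen and 1210 fallen genes stayed within 1.5 times under both pseudocounts, quantile normalization, median centring, averaged probe sets, without dim genes, with the ACT1 ratio as covariate, with trend and robust settings and without the 4 arrays. With arrayWeights 1285 rose, and with the 6 arrays alone 586 rose and 789 fell. An adjusted p under 0.01 left 491 risen and 734 fallen, and a 2-fold minimum 153 and 146. Leaving out 1 array gave 615 to 862 risen and 782 to 1359 fallen, the lowest count of falls without day 5 replicate 1. The labels do not say that replicate numbers pair the samples. Deviations from the group means correlated at -0.35, 0.64 and -0.06 for replicates 1, 2 and 3. Day 5 replicate 1 and day 2 replicate 2, with unlike numbers, correlated at 0.50, so these values cannot decide whether samples were paired. The block by replicate number gave 520 risen and 626 fallen. The 472 strain differences became 1494 without the 4 arrays, 184 to 1348 without single arrays, 127 at an adjusted p under 0.01 and 126 with a 2-fold minimum. The list median turned to -0.00049 for the pentose phosphate pathway with the ACT1 covariate and to -0.0083 for cyclins without dim genes. HMG2 was called lower, at -0.26, without the 4 arrays and, at -0.24, without day 2 replicate 1, and lay between -0.24 and 0.16 over the arrays left out in turn. The next count leaves out NDI1 and GPP2. Of 172 called genes in the text 162 kept their call under each of the up to 19 alternatives that gave them a value, an adjusted p under 0.01 among these. The text genes were picked from the same data, many for the size of their change, so this share does not stand for all called genes. The cause of the shifts with the processing was not tested.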
